A study of Oryctolagus cuniculus with 4 samples.

Results

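The genes described here were read at low to moderate levels in rabbit tendon stem/progenitor cells grown without platelet-rich plasma (PRP) and hardly at all in cells grown with it. They were chosen from the counts themselves: at least 10 reads in each library without PRP, at most 6 reads in both PRP libraries summed, fewer than 50 distinct exon start positions, and not on the mitochondrial sequence. Of 29587 listed genes, 123 met this rule. The study grew tendon stem/progenitor cells of New Zealand White rabbits in medium without PRP (noPRP, 2 libraries, noPRP-1 and noPRP-2) or in medium with 10% (v/v) PRP (2 libraries, PRP-1 and PRP-2), and the labels give no further treatment, time or age. Whether 2 libraries of 1 group represent different animals or different dishes is not given, so the p-values measure only the spread between these libraries, which may be technical. Because the rule used the contrast between the groups, the drop itself is a description here and no finding, and the members' fold changes and calls carry no independent weight.

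Tendon stem/progenitor cells are cells of the tendon that divide in culture and can form new tendon cells. PRP is plasma in which platelets are concentrated. When platelets are activated they release growth factors, such as platelet-derived growth factor and transforming growth factor beta, and PRP is used on injured tendon for that reason. The measured quantity was messenger RNA, as raw reads on the exons of each gene. In bulk RNA, fewer cells of a type and less RNA per cell cannot be told apart. The files name genes by Ensembl identifiers alone, and 0 of these matched the gene table used here. The members are therefore given by position in the OryCun2.0 rabbit genome (first to last exon base, in brackets), without symbols or functions, and the labelled cell type could not be checked against its markers.

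The libraries held 20100175 and 20947284 counted reads without PRP and 24064713 and 23829027 with PRP. Between 15796 and 17499 genes had a count in a library. Levels are given as raw counts or as CPM, the counts relative to library size, with libraries scaled by edgeR's TMM factors. For background, 11364 other genes also had at least 10 counts in each noPRP library, fewer than 50 exon starts and a place off the mitochondrial sequence. They are called comparison genes below. Since most members were read at low levels, the 1378 comparison genes with at most 94 summed noPRP counts, the upper quartile of the members, serve as low comparison genes, and 92 members lay in the same range.

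The members were low in both noPRP libraries, and noPRP-2 held more of their reads. Counts in noPRP-1 ran from 10 to 247 with a median of 20, and counts in noPRP-2 ran from 10 to 568 with a median of 33. In both PRP libraries the counts ran from 0 to 6 with a median of 2. Summed over the members, the counts were 3592 and 7620 in noPRP-1 and noPRP-2, and 217 and 245 in PRP-1 and PRP-2. Their share of all reads was 0.0179% (95% Wilson interval 0.0173 to 0.0185) in noPRP-1 and 0.0364% (0.0356 to 0.0372) in noPRP-2. In the PRP libraries the share was 0.000902% (0.000789 to 0.00103) and 0.00103% (0.000907 to 0.00117). These intervals cover counting error only and take reads as independent, so they are too narrow even for that where both ends of a read pair were counted. The set was thus a minor part of the transcript pool without PRP. Its total differed more between the noPRP libraries than between the PRP libraries, but the rule caps the PRP counts and not the noPRP counts. Nothing is therefore read from that difference.

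**Figure D1:**
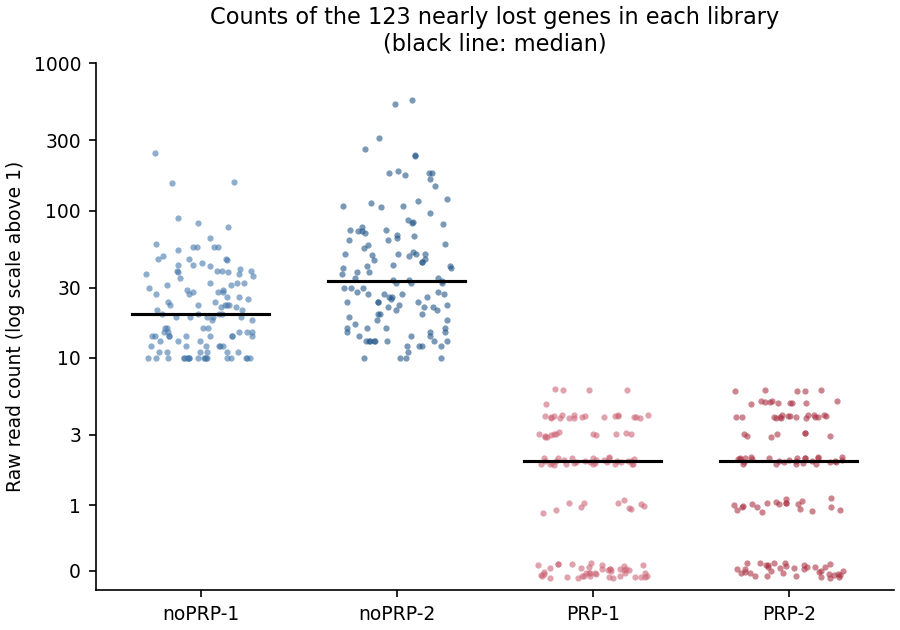
Raw read count of each of the 123 genes (points) in each of the 4 libraries, with the median as a black line; the vertical axis is linear up to 1 and logarithmic above. The noPRP points start at the limit of 10 and reach 247 and 568, and the PRP points stay between 0 and 6, as the rule requires.

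Few members were far above the limit in both noPRP libraries. The lower of the noPRP counts was at least 20 in 54 members, at least 50 in 7 and at least 100 in 3. A count of 100 or more was reached by 3 members in noPRP-1 and by 19 in noPRP-2. Per length, the median member was at 0.519 and 0.89 CPM per kilobase of exon in noPRP-1 and noPRP-2, and the median comparison gene was at 7.86 and 8.06. In the PRP libraries the median member was at 0.0299 and 0.034 CPM per kilobase.

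Most of these genes still had reads with PRP. A PRP sum of 0 was seen in 9 members, of 1 in 14, of 2 in 12, of 3 in 16, of 4 in 17, of 5 in 22 and of 6 in 33. The members thus crowd against the upper limit of the rule. Counts were in both PRP libraries for 52 members, in PRP-2 alone for 35 and in PRP-1 alone for 27. PRP-1 had the higher count in 52 members, PRP-2 in 56, and 15 were equal. The rule holds both PRP libraries low in every member, so this split cannot show whether either of them set the low level. With PRP-1 alone (at most 3 counts) the rule took 175 genes, and with PRP-2 alone it took 290. By the counting program's defaults the ends of a read pair count separately. In PRP-1 54 members had an even count above 0 and 25 an odd one, and in PRP-2 50 and 37. These PRP counts are capped at 6 by the rule. In noPRP-1 the tally was nearer balance, at 65 even and 58 odd, and in noPRP-2 it was 67 and 56. The limits of 6 and 10 are both even and no tally over other genes was taken, so nothing is read from these tallies. Where both ends of a pair were counted, a sum of 6 may stand for as few as 3 sequenced fragments.

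Values on either side of the limits were alike in some measures and not in others. The 55 members with a PRP sum of 5 or 6 had median counts of 18 and 26 in noPRP-1 and noPRP-2. The 53 genes with a sum of 7 or 8 that otherwise met the rule had medians of 16 and 23. The highest counts inside were 247 and 568, and those outside were 72 and 210. The 27 members whose lower noPRP count was 10 or 11 had a median PRP sum of 3, and so had the 50 genes with a lower count of 8 or 9. In noPRP-2 the median was 22 for the former and 13.5 for the latter. The limit on exon starts removed 1 gene, with 10 and 13 noPRP counts and a PRP sum of 4.

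All 123 members were tested in the fit over 12707 genes, and 12 passed in the falling direction (edgeR quasi-likelihood test, Benjamini-Hochberg adjusted p under 0.05). Over all tested genes 0.323% were called falling. At an unadjusted p under 0.05, 106 members were lower in PRP, where 8.01% of all tested genes were. The groups did not overlap in any member, as the rule requires, and both PRP libraries lay below both noPRP libraries in 23.1% of all tested genes. The members' fitted log2 fold changes ran from −9.68 to −2.003 with a median of −4.09, against 0.04 over all tested genes. Since the rule used this contrast, nothing is read from these counts. The number called also varied with the libraries and the settings. In edgeR, 5 members were called without noPRP-2 (0.293% of all genes), 6 without PRP-1 (0.503%) and 46 without noPRP-1 (3.21%), where the lone library of a group is assumed to vary like the other group. DESeq2 called 54 (3.32% of all genes), a fit with no filter 59 (1.68%), and upper-quartile normalization 1 (0.11%). The count was 6 (0.0866%) with the replicate number as a block. It stayed near 12 with DESeq2's size factors at 15 (0.48%), with limma-voom at 12 (0.354%), with a stricter filter at 13 of 32 tested (0.431%) and without PRP-2 at 11 (0.218%). In the other planned fits that kept all libraries, the adjusted p of the 12 called members ran from 7.03e-09 (DESeq2) to 0.127 (edgeR with the replicate block). A crossed pairing in edgeR, noPRP-1 with PRP-2 and noPRP-2 with PRP-1, was chosen after the data were seen. It reached 1.58e-13.

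The members most firmly read in both noPRP libraries lay on several chromosomes. ENSOCUG00000017700, on chromosome 14 (36064645 to 36118573) with 15 exon starts, had 247 and 568 counts without PRP and 1 and 5 with PRP. In CPM it stood at 11.2 in noPRP-1 and 24.97 in noPRP-2. That is 134-fold lower with PRP (exact 95% counting interval 61.3 to 366), and its fitted log2 fold change was −6.95 (SE 1.23; adjusted p = 0.0218 in edgeR). The size moved with the libraries: it was 73.1-fold lower without PRP-1, 82.6-fold without noPRP-2, 184-fold without noPRP-1 and 438-fold without PRP-2. It passed in every other fit that kept all libraries. In the planned ones its adjusted p ran from 7.03e-09 (DESeq2) to 0.0373 (edgeR with upper-quartile normalization). A crossed pairing of the libraries in edgeR, chosen after the data were seen, gave 1.58e-13. Per length it was also the highest of all members in noPRP-2, at 11.6 CPM per kilobase of exon.

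ENSOCUG00000015051, on chromosome 18 (39597126 to 39602191), is a compact gene with 2 exon starts and 3103 bases of exon. It had 155 and 235 counts without PRP and 0 and 3 with PRP, which is 128-fold lower (counting interval 43.6 to 624; log2 fold change −6.83, SE 1.34, edgeR adjusted p = 0.0331). It was 58.3-fold lower without PRP-1. Without PRP-2, which holds all of its PRP reads, only a bound of at least 69.9-fold can be given. That bound uses a floor of 3 counts, with reads taken as independent. The adjusted p was above 0.05 in 2 of its 12 other fits, one of them without PRP-1 (0.0576). A gene on chromosome 14 (43094071 to 43109250) was higher in noPRP-1 than in noPRP-2, with 157 and 105 counts, and had 2 and 3 counts with PRP (edgeR adjusted p = 0.0372). Without PRP-1 its adjusted p was 0.0911 and without PRP-2 0.083.

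These 3 genes were the only members with at least 100 counts in both noPRP libraries. A gene with 5 exon starts on chromosome 1 (92630159 to 92636700) followed, with 65 and 84 counts without PRP and 0 and 1 with PRP. Its noPRP libraries differed little, and its edgeR adjusted p was 0.0376 (0.0998 without PRP-1). A gene with 2 exon starts on chromosome 7 (39124856 to 39128085) had 59 and 175 counts without PRP and 2 and 0 with PRP (edgeR adjusted p = 0.0397, 0.066 without noPRP-2, 0.112 without PRP-2). On chromosome 15 at positions 93194969 to 93227880, a gene with 10 exon starts in only 544 bases of exon had 57 and 116 counts without PRP and 2 and 1 with PRP. Its edgeR adjusted p was 0.0418 and rose above 0.05 without noPRP-2, PRP-1 or PRP-2 (0.122, 0.0859 and 0.185).

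Of the remaining 4 among the 10 members with the highest lower noPRP level, 1 passed. The tenth place was tied: a gene at positions 3370545 to 3384058 of the unplaced sequence GL018721 also had 47 counts in noPRP-1, with 77 in noPRP-2 and 0 and 3 with PRP. It did not pass (edgeR adjusted p = 0.0878), and it was added after its values were seen. The gene that passed lies on the unplaced sequence GL018702 at positions 7770209 to 7799335, with 47 and 81 counts without PRP and 1 and 0 with PRP (edgeR adjusted p = 0.0411; 0.0737 without noPRP-2, 0.0574 without PRP-1 and 0.19 without PRP-2). The other 3 had adjusted p values of 0.0543, 0.0643 and 0.0993. They lie on the X chromosome at positions 9202458 to 9257629 (49 and 313 counts without PRP, 2 and 4 with PRP), on chromosome 20 at positions 24178832 to 24359685 (47 and 180, 0 and 3) and on the unplaced sequence AAGW02082954 at positions 1239 to 2214 (83 and 51, 0 and 4). The first of these was much higher in noPRP-2 than in noPRP-1, and the last was higher in noPRP-1. All 11 of these genes had at least 47 counts in each noPRP library.

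No read at all was counted with PRP for 9 members. The gene between positions 2650421 and 2807619 of the unplaced sequence GL018714 was read 22 and 187 times without PRP, at least 68.7-fold lower with PRP, from a floor of 3 counts over both PRP libraries. The floor takes reads as independent and the noPRP counts as exact. Bounds from it are therefore too high where both ends of a read pair were counted. The bound of this gene rests on noPRP-2: without that library it is at least 14.7-fold. A gene with 25 exon starts on chromosome 2 (95697326 to 95731922) had 39 and 112 counts (at least 49.6-fold lower, 26.1-fold without noPRP-2). A gene on chromosome 7 (108827063 to 108852570) had 29 and 108 counts (at least 45.0-fold lower, 19.4-fold without noPRP-2). These 3 passed the edgeR test, with adjusted p values of 0.0383, 0.0325 and 0.0372. Without noPRP-2 the adjusted p was 0.166, 0.041 and 0.093. Without PRP-1 or PRP-2 the last was at 0.0516 and 0.0585.

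The other 6 members at 0 with PRP did not pass the edgeR test, with adjusted p values of 0.0603 to 0.0878. On chromosome 3 at positions 27838634 to 27881783, a gene had similar noPRP counts of 23 and 28 (at least 16.8-fold lower). A gene with 19 exon starts on chromosome 15 (6574901 to 6738378) had 15 and 59 counts (at least 24.3-fold lower, 10.03-fold without noPRP-2). On chromosome 1 at positions 108091218 to 108101351 the counts were 12 and 52 (at least 21.0-fold lower, 8.03-fold without noPRP-2). All 3 had at most 23 counts in noPRP-1.

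A gene of 1070 bases on chromosome 2 (10848636 to 10849705) had 10 and 45 counts (at least 18.1-fold lower, 6.69-fold without noPRP-2), and an exon of it overlaps an exon of another listed gene. The remaining pair was higher in noPRP-1: 26 and 13 counts on chromosome 14 at positions 87979823 to 88571421 (at least 12.8-fold lower, 8.41-fold without noPRP-1), and 26 and 10 counts on GL018821 at positions 536120 to 654827 (at least 11.8-fold lower, 6.47-fold without noPRP-1). With 1 PRP library left out, the same floor falls on fewer reads and the 9 bounds run from 5.38-fold to 37.5-fold. Both of the last pair are long genes, of 591599 and 118708 bases.

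Within the noPRP group the members were not evenly divided. Of the 123, 87 (70.7%) had a higher CPM in noPRP-2 than in noPRP-1, against 52.1% of the comparison genes and 47.5% of the low comparison genes. The median log2 ratio of noPRP-2 over noPRP-1 was 0.73 for the members (quartiles −0.10 and 1.63), 0.08 for the comparison genes and −0.05 for the low comparison genes. With 1 library on each side there is no test of this difference. Among the 92 low members 59 (64.1%) were higher in noPRP-2, with a median log2 ratio of 0.50. A minimum of 20 counts in each noPRP library, which left 54 members, gave a median of 0.67. The lean depended on the PRP library that chose the genes: with PRP-1 alone (at most 3 counts) the median was 0.21 over 175 genes, and with PRP-2 alone it was 1.14 over 290.

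**Figure D2:**
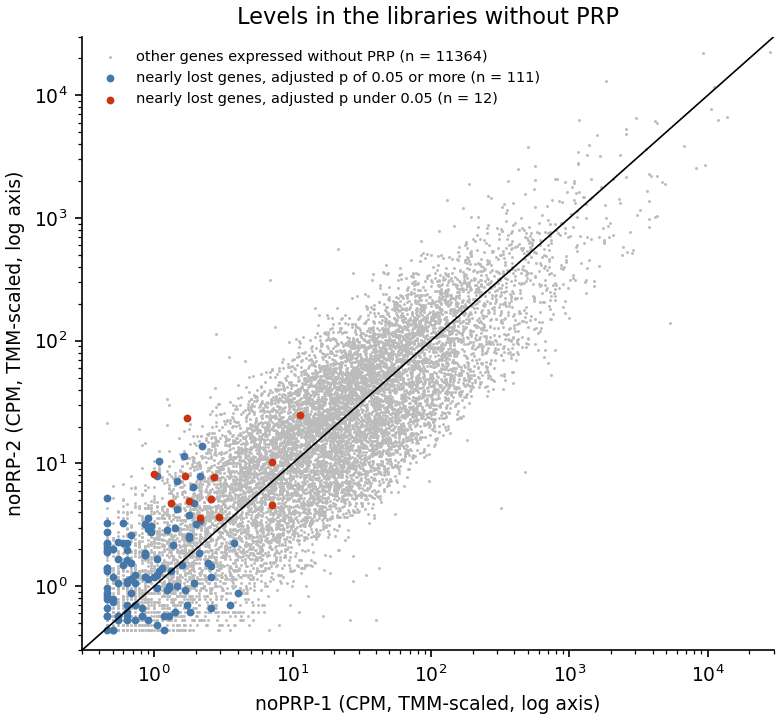
Level of each gene in noPRP-1 (horizontal) and noPRP-2 (vertical) in TMM-scaled CPM on log axes; grey points are the 11364 comparison genes, blue and red points the 123 nearly lost genes, and the line marks equal levels. The nearly lost genes sit at the low end and 87 of them lie above the line.

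Strongly unequal genes were more frequent on the noPRP-2 side. The noPRP libraries were within 2-fold of each other for 61 members (49.6%), against 51.8% of the comparison genes. Among the 92 low members it was 51 (55.4%), against 65.9% of the low comparison genes. More than 4-fold higher in noPRP-2 were 19 members (15.4%), against 2 (1.63%) in noPRP-1. Among comparison genes the shares were 6.2% and 7.4%. Among the low members they were 10.9% and 1.09%, and among the low comparison genes 2.18% and 2.76%. More than 8-fold higher in noPRP-2 were 4 members (3.25%), against 0.766% of the comparison genes. Among the low members and the low comparison genes there were 0. The minimum of 10 counts and the cap of 94 summed counts nearly fix this, so nothing is read from it.

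The most unequal member lies on chromosome 17 (18867867 to 19070558) and has 19 exon starts. It had 38 and 533 counts in noPRP-1 and noPRP-2, a log2 ratio of 3.76, and 1 and 2 counts with PRP. Its edgeR adjusted p of 0.0379 became 0.33 without noPRP-2. A gene on chromosome 18 (37309619 to 37402674) had 10 and 119 counts, a gene on chromosome 8 (62990017 to 62994914) had 24 and 238, and a gene on chromosome 10 (35684013 to 35689785) had 23 and 180. With the gene on GL018714 at 22 and 187, these are the 5 members with the highest ratio of noPRP-2 to noPRP-1. For the genes on chromosomes 18, 8 and 10 the edgeR adjusted p was 0.137, 0.123 and 0.0754, and without noPRP-2 it was 0.978 to 0.9999. Their noPRP level thus rests on noPRP-2. The last of the 12 called genes, on chromosome 15 between positions 24153956 and 24210925, was named after its values were seen. It had 37 and 180 counts without PRP, 0 and 1 with PRP (edgeR adjusted p = 0.0389, 0.15 without noPRP-2 and 0.0635 without PRP-1).

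The 5 members that leaned most to noPRP-1 were less unequal. On chromosome 7 at positions 132442214 to 132714573 the noPRP counts were 77 and 16 (log2 ratio −2.32), with 0 and 4 counts with PRP. On the X chromosome at positions 1339934 to 1391986 they were 89 and 20, with 2 and 4 with PRP, and on chromosome 18 (41258584 to 41280898) they were 57 and 15, with 2 and 2. The remaining 2 lay on the unplaced sequences GL018864 (positions 249470 to 589412, 40 and 14 counts, 0 and 5 with PRP) and GL018821, described above. None of these 5 passed the edgeR test, with adjusted p values of 0.0878 to 0.304. In each of them noPRP-2 was the noPRP library nearest to the PRP level.

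The members spanned more of the genome than genes of like level. Their span, from the first to the last exon base, had a median of 43150 bases, against 24757 for the comparison genes and 9709 for the low comparison genes. For the 92 low members alone it was 44628. Spans ran from 123 to 1659781 bases. A span of 100 kb or more was found in 38 members (30.9%), 16.9% of the comparison genes and 11.7% of the low ones, and a span under 10 kb in 21.95%, 30.9% and 50.4%. Unplaced sequences can cut genes short, so the chromosomes were also taken alone: there the median span was 48496 bases for 107 members, 29675 for the comparison genes and 12298 for the low ones. The median span was shorter with any library left out and with wider limits of the rule. It was 31641 bases without noPRP-1, 30398.5 without PRP-1, 31479 without PRP-2 and 31330 at a PRP sum of up to 12. Without noPRP-2 the rule took 208 genes with a median span of 24967 bases, and with a noPRP minimum of 5 counts it took 280 with 27570.

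Exon length and exon number set the members apart less than span. The median exon length was 1918 bases, against 2040 for the comparison genes and 1516 for the low ones. The median number of exon starts was 8, against 10 and 5. A single exon was found in 9 members (7.32%), against 4.91% and 13.8%. On the chromosomes, exons covered a median of 4.03% of a member's span, 6.99% of a comparison gene's and 13.3% of a low comparison gene's. Their strands were balanced, with 61 on the plus strand.

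The share of low genes that were nearly lost was higher at longer spans. Of the 1470 low genes expressed without PRP, 92 (6.26%) were members. By span this was 2.81% under 3 kb (13 of 463), 2.4% at 3 to 10 kb (6 of 250), 6.46% at 10 to 30 kb (19 of 294) and 9.16% at 30 to 100 kb (25 of 273). It was 11.8% at 100 to 300 kb (18 of 152) and 28.9% at 300 kb or more (11 of 38). The opposite rule, at least 10 counts in each PRP library and a noPRP sum of at most 6, took 146 genes with a median span of 6898 bases, and 7 of them (4.79%) spanned 100 kb or more. In the matching low range, with up to its own upper quartile of PRP counts, its share was 6.03% under 3 kb, 9.68% at 3 to 10 kb, 1.75% at 100 to 300 kb and 3.03% at 300 kb or more. The median span of the members, 43150 bases, lay above that of this opposite set, and the difference was not tested.

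**Figure D3:**
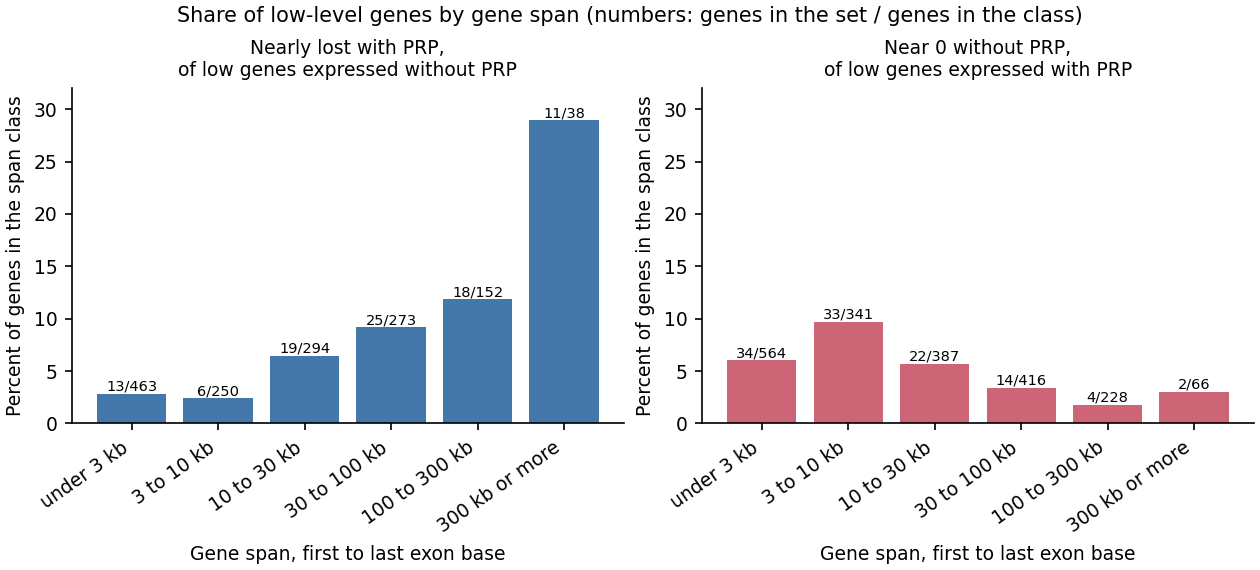
Percent of low genes in each class of gene span that met the rule (left, nearly lost with PRP) or the opposite rule (right, near 0 without PRP); bars carry the number of genes in the set and in the class. The left bars lie at 2.81% and 2.4% in the classes under 10 kb and reach 28.9% at 300 kb or more, and on the right the highest bar is 9.68% at 3 to 10 kb.

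The dependence on span was not confined to the members or to the contrast between the groups. Among the comparison genes the median log2 fold change of PRP over noPRP was 0.33 under 3 kb, 0.67 at 3 to 10 kb, 0.20 at 10 to 30 kb, −0.42 at 30 to 100 kb, −0.67 at 100 to 300 kb and −1.06 at 300 kb or more. Among the low comparison genes it was 0.11, 0.72, 0.41, −0.19, −0.41 and −0.58 in the same order, a smaller fall in the long classes. The libraries of one group differed along the same property. For all comparison genes the median log2 ratio of noPRP-2 over noPRP-1 was −0.37 under 3 kb, −0.83 at 3 to 10 kb, 0.64 at 100 to 300 kb and 0.82 at 300 kb or more. For PRP-2 over PRP-1, with 0.1 CPM added, it was 0.38, 0.54, −0.59 and −0.61 in the same classes. The low comparison genes differed less between the noPRP libraries, at −0.05, −0.50, 0.23 and 0.26 in these classes. Long genes were thus relatively higher in noPRP-2 than in noPRP-1, and lower in PRP-2 than in PRP-1. The part of this shift in the members' low PRP counts was not tested. Among the members the median log2 ratio of noPRP-2 over noPRP-1 was positive in every class, from 0.05 for the 16 members under 3 kb to 1.17 for the 11 at 3 to 10 kb, a class where comparison genes leaned to noPRP-1.

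The longest members show the range of levels. The longest, on chromosome 18 (18867692 to 20527472), had 21 and 70 counts without PRP and 0 and 5 with PRP. A gene on chromosome 15 (58389801 to 59653895), of 1264095 bases, had 13 and 51 without PRP and 2 and 0 with PRP. A gene on chromosome 2 (108803578 to 109607033) had 32 and 165 without PRP and 3 and 2 with PRP. Their edgeR adjusted p values were 0.2, 0.128 and 0.0674, so none passed. All 3 were higher in noPRP-2. These genes were picked for their length after the values were seen.

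The members were spread over the genome, with fewer on unplaced sequences than expressed genes in general. Of the 123, 16 (13.0%) lay on unplaced sequences, against 26.3% of the comparison genes and 29.1% of the low ones. On the X chromosome lay 9 members (7.32%), against 2.67% and 3.05%. Members made up 1.07% of all genes expressed without PRP. This share was 2.88% on the X chromosome (9 of 312), 2.52% on chromosome 15 (7 of 278), 2.41% on chromosome 14 (11 of 457) and 2.22% on chromosome 18 (7 of 316). It was 0.533% on unplaced sequences (16 of 3001) and 0.329% on chromosome 16 (1 of 304), and chromosomes 6 and 21 held no member among 142 and 112 expressed genes. With so few genes per chromosome, single members move these shares.

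**Figure D4:**
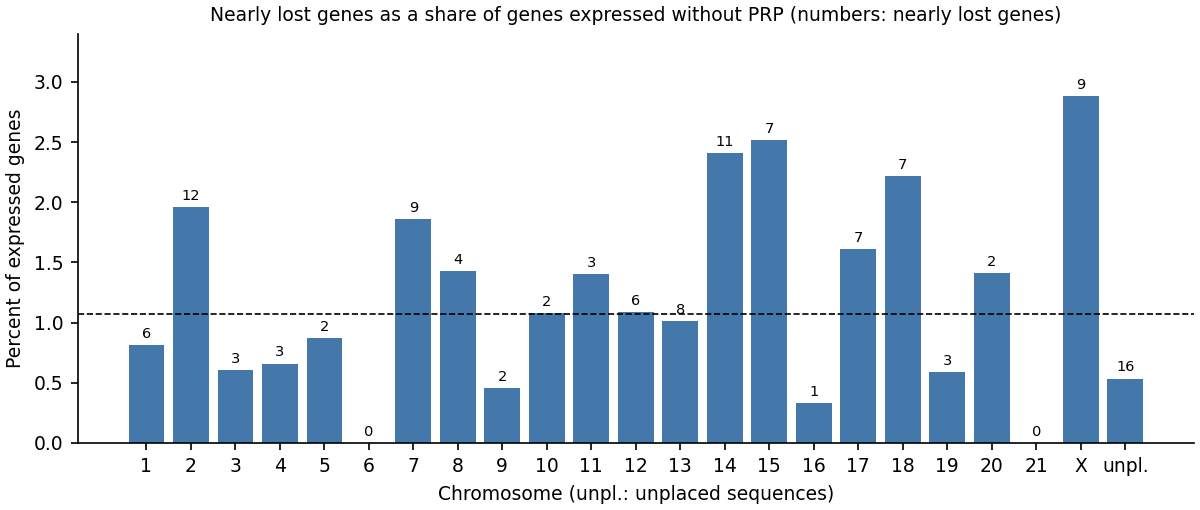
Nearly lost genes as a percent of the genes with at least 10 counts in each noPRP library, by chromosome, with the number of nearly lost genes on each bar; the dashed line is the share over the genome, 1.07%. The X chromosome has the highest share, 2.88%, and unplaced sequences lie at 0.533%.

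On the X chromosome, 6 of the 9 members lay in the first 10 Mb. They made up 16.2% of the 37 expressed genes there, against 1.09% of the 275 on the rest of the chromosome. The most abundant of them, already described, had 49 and 313 counts without PRP, and another had 89 and 20. The other 4 had 12 and 13, 20 and 82, 23 and 11, and 31 and 14 counts in noPRP-1 and noPRP-2, with PRP sums of 4 or 5. Of the 6, 3 had the higher CPM in noPRP-1 and 3 in noPRP-2. The comparison genes of that stretch had a median log2 fold change of −1.23 with PRP, against −0.70 on the rest of the X chromosome. This stretch was picked after its values were seen.

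On the 3 chromosomes with the highest share of members, the median of the other genes was lower with PRP and higher in noPRP-2. On chromosome 15 the comparison genes had a median log2 fold change of −0.83 and a median log2 ratio of noPRP-2 over noPRP-1 of 0.80. The values were −0.61 and 0.74 on chromosome 14 and −0.73 and 0.71 on the X chromosome. On unplaced sequences they were 0.62 and −0.73. The share did not follow these medians everywhere: chromosome 16 had −0.58 and 0.48 with 1 member, and chromosome 11 had −0.82 and 0.84 with 3 members among 214 expressed genes (1.40%). The members on chromosome 15 leaned to noPRP-2 (6 of 7, median log2 ratio 1.63), but those on chromosome 14 were balanced (6 of 11, median 0.00) and so were those on the X chromosome (5 of 9, median 0.07). Of the 16 on unplaced sequences, 5 were higher in noPRP-2 (median −0.17).

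The genes beside the members were mostly lower with PRP too, by smaller factors. For 121 members the nearest tested gene outside the set, on either side and without overlap, was read on the same sequence. Of these 236 neighbours, some of which flank more than 1 member, 176 (74.6%) were lower with PRP, against 48.5% of the 12584 tested genes outside the set. Their median log2 fold change was −0.90, against 0.05. Unplaced sequences held 13.0% of the members and 26.3% of the comparison genes, whose median log2 fold change there was 0.62. A background on the chromosomes alone was not taken here, so the sets are unlike in location. A log2 fold change under −3 was found in 14 neighbours (5.93%), against 2.42% of tested genes outside the set. Both neighbours were lower with PRP for 68 of 115 members, and both were higher for 9. The median distance to a neighbour was 77800 bases. Within the noPRP group the neighbours had a median log2 ratio of noPRP-2 over noPRP-1 of 0.87, near the members' own 0.73. It covers only neighbours with at least 10 counts in each noPRP library and fewer than 50 exon starts. The comparison genes had a median of 0.08 over all, from −0.73 on unplaced sequences to 0.84 on chromosome 11. The part of position or span in the neighbours' shift was not tested.

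**Figure D5:**
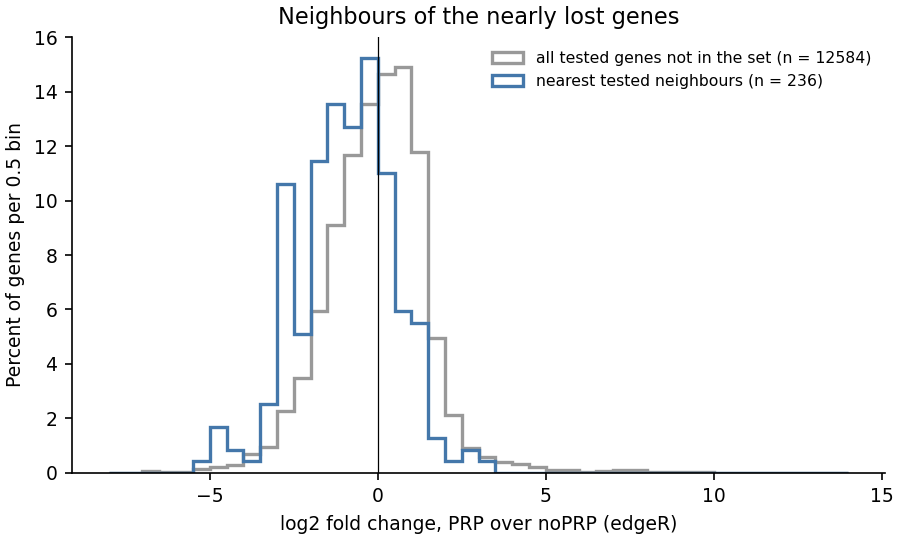
Distribution of the edgeR log2 fold change of PRP over noPRP for the 236 nearest tested neighbours of the nearly lost genes (blue) and for the 12584 tested genes outside the set (grey), as percent of genes per bin of 0.5. The blue line is shifted to the left, with a median of −0.90 against 0.05.

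Few members lay close together. Within 500 kb of another member were 8, in 4 pairs. On chromosome 13 a pair 10573 bases apart, at positions 23444092 to 23476866 and 23487439 to 23516187, had nearly the same profile: 12 and 38 counts without PRP for the former and 14 and 45 for the latter, with 0 and 6, and 0 and 4, with PRP. On chromosome 18 a pair 24239 bases apart, at positions 41210071 to 41234345 and 41258584 to 41280898, had 46 and 42 and 57 and 15 counts without PRP, so it differed between the noPRP libraries. None of these 4 genes passed the edgeR test, with adjusted p values of 0.124 to 0.373.

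The pairs on chromosomes 14 and 15 were wider apart and less alike. On chromosome 14 the gene with 157 and 105 counts described above lay 444782 bases from one with 15 and 26. On chromosome 15 a gene at positions 10377485 to 10382637 had 12 and 12 counts without PRP and 6 and 0 with PRP. Its partner, 117961 bases away at positions 10500598 to 10813743, had 10 and 32 without PRP and 0 and 1 with PRP. The former has the smallest change of all members, a log2 fold change of −2.003 (edgeR adjusted p = 0.512).

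Overlap with other genes bears on how reads were assigned, because by the counting program's defaults reads on overlapping exons of several genes were dropped and strand was ignored. The span of 28 members overlapped another listed gene, and in 7 an exon overlapped an exon of another gene. Among those 7 are a gene on chromosome 2 (53170778 to 53517187), with 36 and 262 counts without PRP and 3 and 0 with PRP, and the gene on chromosome 18 with 10 and 119 counts. Their counts may miss reads in every library.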

How the data were processed

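Messenger RNA of rabbit tendon stem/progenitor cells was read in 4 libraries, 2 without and 2 with PRP. The authors deposited raw counts per gene. The tools were STAR 2.7.2a and featureCounts 1.6.5 and the build was OryCun2.0, per the submitters' processing notes. Per the file headers, reads were counted on the exons of Ensembl release 98 genes with no option for strand, pairs, multiple alignments or overlaps. A table of the whole series was not used.

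Genes were kept by edgeR's filterByExpr, normalized by TMM and tested with edgeR 4.0.16 (glmQLFit, glmQLFTest) under R 4.3.3, with no term beside the group and Benjamini-Hochberg adjustment over 12707 genes. Standard errors were computed from the test's F value. Residual degrees of freedom were 2 per gene, beside a median of 11.4 prior ones. An exact permutation test of 2 against 2 libraries was not run, since it cannot reach 5%. The edgeR fit alone was tested on simulated counts, with falls planted only in genes of a higher mean count than most members have. The rule, the noPRP ratios, the spans and the floors were not tested in this way. Fold intervals are exact binomial, shares have Wilson intervals, and both cover counting error with reads taken as independent.

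Named genes were all members at 0 with PRP, the 10 with the highest lower noPRP CPM, and the 5 at either end of the noPRP ratio. Alternatives were DESeq2 1.42.0, limma-voom (limma 3.58.1), other normalizations and filters, a replicate block, each library left out, and other limits of the rule. A crossed pairing of the libraries was added after the data were seen. The members and lists were chosen with earlier results of these data known.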

Additional observations from a re-analysis of the deposited data

How the results depend on the processing

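The fitted log2 fold change of every member tested stayed negative in all 12 other fits, which the choice of members nearly fixes. Members called falling numbered 12 (41 over all genes) and were 1 (14) with upper-quartile normalization, 59 (335) with no filter, 54 (422) with DESeq2 and 5 to 46 (29 to 433) with a library left out; DESeq2's size factors (15), limma-voom (12) and the stricter filter (13), which tested only 32 members, moved the count less. The 12 were all called again with DESeq2, its size factors and no filter, while limma-voom called 10 of them, the replicate block 6 and upper-quartile normalization 1, and 5 to 12 were called with a library left out. The replicate numbers are not said to pair libraries, and same-numbered libraries deviated from their group means with a correlation of −0.63; with the replicate block 6 members (11 genes) were called. The crossed pairing, chosen after seeing the data, called 98 members (1936 genes, 15.2% of those tested). The rule took 9 genes at a PRP sum of 0, 265 at up to 12, 54 at a noPRP minimum of 20, 280 at a minimum of 5 and 175 to 356 with a library left out. In the same order, genes on unplaced sequences, 16 in the main set, numbered 2, 44, 6, 49 and 27 to 60. Genes higher in noPRP-2 numbered 7, 187, 39 and 189, and 99 to 238 without a PRP library. Their median log2 ratio was 1.85 at a PRP sum of 0, and 0.21 to 1.14 without a PRP library, the latter added after seeing the data; without a noPRP library it has no value. The median span was 27570 bases at a noPRP minimum of 5 and 24967 to 31641 with a library left out. Median exon length and exon number stayed within the 95% binomial interval of the main median under all of these. Counts of at most 6 limit how far below noPRP a member can be placed. The cause was not tested.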
